A study of Mus musculus with 8 samples.

Results

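Neural crest cells leave the dorsal neural tube and give rise to the sympathetic, parasympathetic and enteric ganglia, to the Schwann cells and other glia of peripheral nerves, and to the melanocytes of the skin. Foxd3, Sox10, Tfap2a and Tfap2b are transcription factors of the crest and its early derivatives. Phox2a is a homeodomain factor of the autonomic and noradrenergic lineage, Ret is the signalling receptor for ligands of the GDNF family, and Mitf is the transcription factor that directs melanocyte development. Ednrb and Erbb3 are the receptors through which endothelin 3 and the neuregulins act on melanoblasts, enteric progenitors and Schwann cell precursors. These 9 genes were followed through the RefSeq transcript that each array probe names. A probe was matched for 5 of them, Foxd3, Tfap2a, Phox2a, Ret and Mitf, with 1 probe each. The other 4, Sox10, Tfap2b, Ednrb and Erbb3, were matched to no probe and are not analysed here. The 5 probes stand among 34967 gene probes on the array, of which 23389 were above background often enough to be tested.

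The study asked how Ott1, the RNA-binding protein now named Rbm15, controls gene expression. Mice with a low-expression allele of Ott1 were crossed, and 8 whole embryos at E11.5 (embryonic day, mid-gestation) were snap-frozen, each hybridised to 1 one-colour CodeLink array. The wild-type group holds 2 embryos (numbers 11 and 13) without the allele. The heterozygous group holds 3 embryos (3, 10 and 15) with 1 copy, and the homozygous group holds 3 embryos (2, 7 and 16) with the allele on both chromosomes. All groups come from these matings; the labels name neither strain nor sex, and do not say how far the allele lowers expression. Rbm15 itself was matched to no probe, so its level is not analysed here. RNA came from the whole embryo, in which crest derivatives are a small share of the cells, so fewer cells of a type and less RNA per cell cannot be told apart.

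Values are log2 intensities after background subtraction and quantile normalization across the 8 arrays, and a probe counts as above background where the scanner software did not mark it as low. Between 22526 and 26619 gene probes were above background per array. The array of homozygous embryo 16 stood apart: its median intensity before normalization was 87.9 against 48.3 to 61.5 on the other arrays, and 1634 of its spots were marked as defective against 206 to 616. After normalization its lowest log2 value above background was 3.40, against 4.28 to 4.56 on the other arrays. A dim probe can therefore be low in embryo 16 after normalization though its intensity before it was not. Probes of 4 Y-linked genes were low in heterozygous embryos 3 and 15 and homozygous embryo 16, with mean centred levels of -2.32, -2.55 and -1.99 on the log2 scale, and lay between 1.01 and 1.33 in the other 5. In embryo 16 the level rests on 2 of the 4 genes, since its Ddx3y and Eif2s3y spots were marked as defective. In homozygous against the 5 other embryos, differences that embryo 16 moved by more than 1.5 times are given with and without it.

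Foxd3 (probe GE35423, transcript NM_010425), the forkhead factor that marks premigratory crest and keeps it in a progenitor state, was above background in all 8 embryos and gave nearly the same value in each. Its log2 levels were 8.98 and 9.09 in the wild-type embryos, 8.89, 9.14 and 8.99 in the heterozygous ones, and 8.99, 9.05 and 8.80 in homozygous embryos 2, 7 and 16. The lowest value was that of embryo 16 and the highest that of heterozygous embryo 10, and the 3 genotypes overlapped. The whole spread over the 8 embryos was 0.34, and its SD of 0.11 was smaller than that of all but 10.1% of the tested probes.

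Tfap2a (GE36179, NM_011547), the AP-2 alpha factor of the neural plate border, the early crest and the surface ectoderm, varied more. It measured 6.32 and 6.03 in the wild-type embryos, 5.79, 6.25 and 5.62 in heterozygous embryos 3, 10 and 15, and 6.15, 5.94 and 5.63 in homozygous embryos 2, 7 and 16. The low values came from embryos of both heterozygous and homozygous genotype, and the genotypes overlapped. The 3 lowest, in embryos 3, 15 and 16, belong to the same embryos in which the Y-linked probes were low. Before normalization, however, the Tfap2a intensity of embryo 16 was 73.32, against 40.71 to 77.47 in the other embryos. No wild-type embryo had low Y-linked probes, while heterozygous embryos 3 and 15 did, so Y-linked level and genotype cannot be fully told apart. The part of either in the Tfap2a values was not tested. With the Y-linked level as a covariate in the fit, the heterozygous minus wild-type difference of Tfap2a moved from -0.29 to 0.04 (adjusted p = 0.989) and the homozygous minus heterozygous one from 0.02 to -0.16 (adjusted p = 0.524, limma).

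Phox2a (GE42549, NM_008887), a factor in the specification of autonomic neurons, measured 7.60 and 7.75 in the wild-type embryos, 7.52, 7.58 and 7.70 in the heterozygous ones, and 7.94, 7.29 and 7.72 in homozygous embryos 2, 7 and 16. Both the highest and the lowest of the 8 values were homozygous. The homozygous mean was 7.65 ± 0.33 (SD, n = 3) and the mean of the other embryos 7.63 ± 0.09 (SD, n = 5), so the groups differed in spread more than in level.

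Ret (GE33560, NM_009050), the receptor tyrosine kinase of migrating enteric crest, sympathetic precursors and also of the ureteric bud, was tightly grouped in the 5 embryos with a normal allele, at 6.10 and 6.0 in the wild-type and 5.99, 5.95 and 6.08 in the heterozygous embryos. The homozygous embryos lay on either side of this band: 5.60 in embryo 2, 5.89 in embryo 7 and 6.74 in embryo 16. Embryo 16 was above every other embryo, while embryos 2 and 7 were below every embryo with a normal allele. The homozygous mean was therefore 6.08 ± 0.59 (SD, n = 3) against 6.03 ± 0.06 (SD, n = 5). Before normalization the background-subtracted intensity of Ret was 132.5 in embryo 16 and 48.97 in embryo 2, the highest and the lowest of the 8 arrays.

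Mitf (GE34024, NM_008601) was above background in 1 of the 8 embryos, wild-type embryo 13, at 4.46. In the other 7 the probe was not well above background, with values of 4.64 in wild-type embryo 11, 4.04, 4.01 and 4.21 in the heterozygous embryos, and 4.33, 3.43 and 2.53 in the homozygous ones. No fold change was formed from these values and Mitf entered no test. The lower values of embryos 7 and 16 lie in the range where the array does not separate signal from background.

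**Figure D1:**
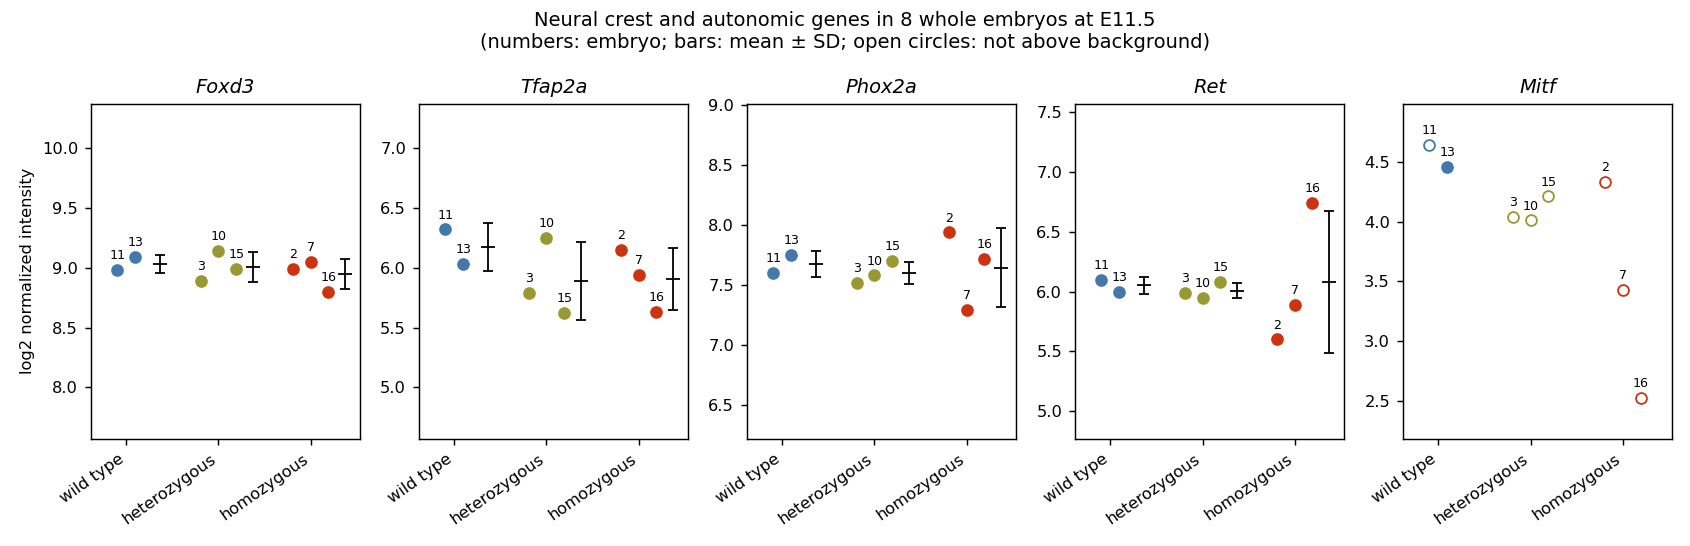
Log2 normalized intensity of the 5 matched genes (y axis, each panel spanning the same number of log2 units) in each embryo, with the embryo's number above its point and the mean ± SD of each genotype beside it. Foxd3 spans 0.34, Ret spreads from 5.60 to 6.74 within the homozygous group, and Mitf, shown without means, is above background (filled circle) only in embryo 13.

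None of the 4 tested genes passed the threshold in any of the 4 genotype comparisons. In homozygous embryos against wild type, limma's adjusted p was 0.569 for Tfap2a, the smallest of the 4, 0.768 for Foxd3, 0.957 for Phox2a and 0.975 for Ret. Of 23387 probes with a value, 8 passed an adjusted p of 0.05 (Benjamini-Hochberg over all tested probes), which is 0.0342%. The differences were -0.08 ± 0.13 (SE) for Foxd3, -0.27 ± 0.23 for Tfap2a, -0.03 ± 0.19 for Phox2a and 0.03 ± 0.30 for Ret, with 3 embryos against 2. At an unadjusted p under 0.05 the comparison held 3577 probes (15.3%), and none of the 4 genes was among them.

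Heterozygous embryos against wild type gave 0 passing probes of 23387 (0%), and 538 at an unadjusted p under 0.05. The differences were -0.02 ± 0.13 (SE) for Foxd3, -0.29 ± 0.23 for Tfap2a, -0.07 ± 0.19 for Phox2a and -0.05 ± 0.30 for Ret. In homozygous against heterozygous embryos, 5 of 23388 probes passed (0.0214%), and the 4 genes differed by -0.06 ± 0.12, 0.02 ± 0.20, 0.05 ± 0.17 and 0.07 ± 0.27 in the same order. Every 95% interval of these comparisons included 0. The comparisons share embryos, so their values are not independent of each other.

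The comparison with the most embryos set the 3 homozygous embryos against the 5 others, and 25 of 23388 probes passed (0.107%), 7 higher and 18 lower. Foxd3 differed by -0.07 on the log2 scale, with a 95% interval of -0.29 to 0.15, which is 0.816 to 1.11 times the level of the other embryos (adjusted p = 0.711, limma). Tfap2a differed by -0.10, with an interval of -0.52 to 0.33 or 0.695 to 1.26 times. Phox2a differed by 0.02, from -0.31 to 0.35 or 0.805 to 1.27 times. Ret differed by 0.05, from -0.45 to 0.56 or 0.73 to 1.48 times. A doubling or halving of Foxd3 or Tfap2a lies outside these intervals, and changes the size of the intervals or smaller were not detectable with 8 embryos. The intervals rest on 1 spread shared by both groups. For Ret the SD was 0.59 in the homozygous group and 0.06 in the others, and for Phox2a 0.33 and 0.09. No statement on a doubling or halving is therefore made for Ret or Phox2a. Over all tested probes the median difference was -0.06 and 39.8% of differences were positive, so 2 positive and 2 negative differences among 4 genes are close to that background.

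The Ret difference depended on which homozygous embryos were included. Without embryo 16 its difference between homozygous and other embryos was -0.28 (adjusted p = 0.286, limma), and against wild type it was -0.31 (adjusted p = 0.342). With embryo 16 left in and homozygous embryo 2 left out, the difference from the 5 others was 0.29 (adjusted p = 0.451). Without embryo 16 the differences of Foxd3, Tfap2a and Phox2a from the 5 others were 0.003, 0.04 and -0.02. The part of the brighter array of embryo 16 in its high Ret value was not tested. The sign of the Ret and Phox2a differences also turned with the scaling: with each array scaled to its median, Ret against the 5 others was -0.02 and Phox2a -0.15, while the median of all probes moved to -0.22.

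**Figure D2:**
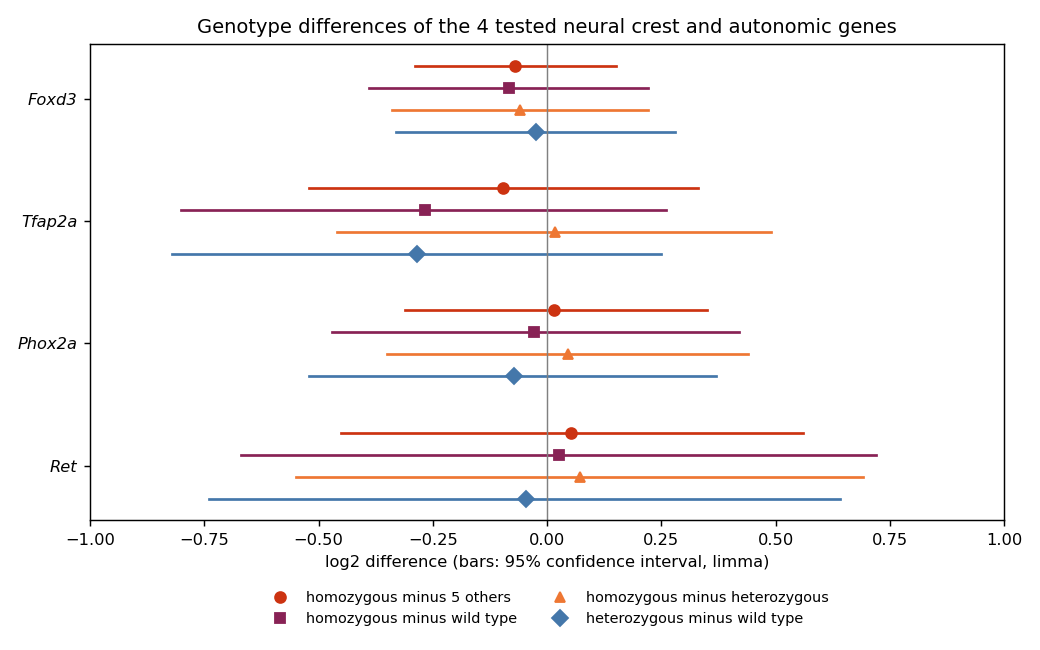
Log2 differences (x axis) of the 4 tested genes in the 4 genotype comparisons, with 95% confidence intervals from limma as bars. Every interval crosses 0; the widest are those of Ret, whose homozygous values run from 5.60 to 6.74.

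The genes that act with these factors were read from lists of 198 other genes of the crest, its signalling pathways, its derivatives and other cell types of the embryo. Probes were matched for 166 and 139 were tested. None passed the threshold in any of the 4 comparisons (limma). At an unadjusted p under 0.05 the counts were 30 (21.6%) for homozygous against wild type, 4 (2.88%) for heterozygous against wild type, 12 (8.63%) for homozygous against heterozygous and 32 (23%) for homozygous against the 5 others. Over all probes the shares were 15.3%, 2.3%, 11.6% and 20% in the same order. Of the 132 list genes with a value in all embryos, 15 (11.4%) had homozygous values that did not overlap the other 5, against 14.2% of all 21788 such probes.

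For the partners of Ret, the array measured ligands and co-receptors unevenly. Gdnf itself was matched to no probe, and the probes of its co-receptors Gfra1 and Gfra2 were not above background on any array. Nrtn, the ligand neurturin, measured 9.31 and 9.43 in wild-type, 9.28, 9.48 and 9.22 in heterozygous, and 9.69, 9.61 and 9.12 in homozygous embryos. Gfra3, the co-receptor for artemin, measured 6.45 and 6.63, then 6.30, 6.41 and 6.39, then 7.00, 5.86 and 6.18 in the same order. As with Phox2a, the homozygous group held both the highest and the lowest Gfra3 value. Artn, the ligand artemin, differed by -0.35 ± 0.21 (SE, adjusted p = 0.378, limma) between homozygous and other embryos. Embryo 16 was lowest at 4.12, with the other 7 between 4.98 and 5.28, and without embryo 16 the difference was -0.04. Before normalization the Artn intensity of embryo 16 was 32.45, within the 25.92 to 33.34 of the other 7. Of the 4 tested genes of this pathway, 2 differences were positive and 2 negative, with a median of -0.03 (0.01 without embryo 16).

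For the endothelin pathway, Ednra, the receptor of cranial and cardiac crest, differed by -0.19 ± 0.15 (adjusted p = 0.485). Ece1, the protease that cuts big endothelins into active peptides, had the smallest adjusted p of all listed genes. It measured 10.58 and 10.69 in wild-type, 10.80, 10.78 and 10.78 in heterozygous, and 11.18, 11.12 and 11.23 in homozygous embryos, so the homozygous values lay above all others. The difference from the 5 others was 0.45 ± 0.09 (SE; adjusted p = 0.109, limma), which missed the threshold. It passed with normexp background correction (adjusted p = 0.0479), and shrank to 0.13 with median scaling (adjusted p = 0.589) and 0.09 in the deposited normalized values (adjusted p = 0.701). Edn1, the ligand of Ednra, ranged from 6.78 to 7.35 over the 8 embryos, and Edn3, the ligand of Ednrb, was matched to no probe.

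For the neuregulin pathway, Erbb2, the kinase that pairs with Erbb3, differed by 0.16 ± 0.09 (adjusted p = 0.35). Nrg3, a neuregulin that binds Erbb4, measured 6.71 and 6.78 in wild-type, 6.59, 6.81 and 6.84 in heterozygous, and 6.29, 6.41 and 5.98 in homozygous embryos. The homozygous values lay below all others, with a difference of -0.52 ± 0.12 (SE; adjusted p = 0.123, limma) that missed the threshold, and of -0.39 without embryo 16. Nrg1, Nrg2 and Erbb4 were matched to no probe.

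Genes of crest specification and migration, the setting in which Foxd3 and Tfap2a act, were nearly balanced in sign. Of 23 tested, 13 differences between homozygous and other embryos were positive and 10 negative, beside 39.8% positive over all tested probes. The median was 0.04 (0.01 without embryo 16). The gene with the smallest p was Zic2, a zinc-finger factor of the dorsal neural tube, at 9.38 and 9.29 in wild-type, 8.77, 9.09 and 9.36 in heterozygous, and 8.14, 8.55 and 8.59 in homozygous embryos. Its difference was -0.75 ± 0.17 (SE; adjusted p = 0.123, limma). Pax3, a paired-box factor of the dorsal neural tube and crest, differed by -0.13, and Mef2c, a MADS-box factor, by -0.21 ± 0.09 (adjusted p = 0.225).

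Of the relatives of Tfap2a, Tfap2c measured 8.51 and 8.35 in wild-type, 8.42, 7.83 and 7.82 in heterozygous, and 8.36, 8.34 and 8.27 in homozygous embryos, which overlapped. Tfap2d, expressed in the midbrain and eye, measured 5.48 and 5.76, then 5.41, 5.40 and 5.59, then 5.17, 5.36 and 4.54. Its homozygous values lay below the others (difference -0.51 ± 0.18, adjusted p = 0.197, limma, and -0.26 without embryo 16). Before normalization the Tfap2d intensity of embryo 16 was 40.53, within the 33.86 to 51.78 of the other embryos. Of the relatives of Mitf, Tfeb, a regulator of lysosomal genes, differed by -0.40 ± 0.14 (adjusted p = 0.186; -0.26 without embryo 16). Tfe3 measured 6.17 and 6.18, then 6.06, 5.93 and 6.28, then 6.27, 6.01 and 5.34. The median of the pair was -0.33 and -0.12 without embryo 16.

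The melanocyte list, in which Mitf acts, had 10 tested genes of 13 matched. The pigment enzyme gene Tyr was not above background on any array. Of the 10, 7 differences between homozygous and other embryos were negative and 3 positive, beside 60.2% negative over all tested probes. The list's median was -0.27, and -0.17 without embryo 16. The 3 positive ones were Slc24a5, Kitl and Kit. In homozygous embryos 2, 7 and 16, Slc24a5 measured 5.25, 5.15 and 6.42, against at most 5.48 in the others. Kitl measured 9.51, 9.39 and 9.7 there, against at most 9.63, and Kit 7.97, 7.87 and 8.13, against at most 7.93. Rab38, which sorts enzymes to melanosomes, was 9.17 and 9.02 in wild-type, 9.13, 9.19 and 9.15 in heterozygous, and 8.81, 8.74 and 8.72 in homozygous embryos, a difference of -0.38 ± 0.08 (SE; adjusted p = 0.119, limma). Slc45a2, a melanosome transporter, differed by -0.58 ± 0.17 (adjusted p = 0.163, limma, and -0.38 without embryo 16), and its homozygous values were also below the others. Before normalization its intensity in embryo 16 was 38.42, within the 30.14 to 40.89 of the other embryos. Pmel and Dct, of the melanosome matrix and of pigment synthesis, differed by -0.28 ± 0.25 and -0.37 ± 0.20, with overlapping values; the fit of Dct leaves out wild-type embryo 13, whose spot was marked. Pigment cells of the retina share these genes: the list of retina and pigment epithelium had 5 of 8 negative differences and a median of -0.18 (-0.09 without embryo 16), and the part of either source was not tested.

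The Schwann cell precursor and glia list had 8 negative and 4 positive differences among 12 tested genes, beside 60.2% negative over all tested probes. The list's median was -0.25 (-0.13 without embryo 16). The 4 positive ones were Pmp22, Ngfr, Cdh6 and Sox2. Pmp22 measured 11.40 and 11.02 in wild-type, 11.27, 11.60 and 11.05 in heterozygous, and 11.12, 11.56 and 12.13 in homozygous embryos. Dhh, the hedgehog ligand of Schwann cells, was above background in both wild-type embryos but in 1 of 3 heterozygous and 1 of 3 homozygous ones. It thus entered the list through the wild-type group and no difference is given, though it is counted among the 8 negative genes. Ngfr, counted as positive, also entered through the wild-type group. Egr2, of rhombomeres and later of myelinating Schwann cells, differed by -0.57 ± 0.23 (adjusted p = 0.223).

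Most genes of the autonomic and enteric neuron list measured lower in homozygous embryos, though none passed the test. Of 23 tested genes, 21 had a negative difference between homozygous and other embryos and 2 a positive one; 8 had an unadjusted p under 0.05, against 20% of all tested probes, of which 60.2% had a negative difference. The list's median was -0.25 against -0.06 for all probes; without embryo 16, 19 of 23 were negative with a median of -0.19, beside 54.9% and -0.03 for all probes. Set beside it, Ret and Phox2a differed by 0.05 and 0.02 with all embryos, and by -0.28 and -0.02 without embryo 16. In the deposited normalized values they differed by -0.05 and -0.18, where the median was -0.41 for the list and -0.25 for all probes. Against wild type 20 of 23 were negative, with a median of -0.34, and in heterozygous against wild type 16 of 23, with a median of -0.15. Over all probes, 40.1% of differences were positive in the first comparison (median -0.07) and 48.5% in the second (median -0.005). These comparisons share the same wild-type embryos. Chat, counted as negative in each, was above background in both wild-type embryos, 1 of 3 heterozygous and 2 of 3 homozygous ones. It therefore entered the list, its counts and its medians through the wild-type group.

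Dbh, the enzyme that makes noradrenaline, measured 11.15 and 11.13 in wild-type, 11.20, 11.00 and 11.22 in heterozygous, and 10.84, 11.12 and 11.01 in homozygous embryos (difference -0.15 ± 0.10, adjusted p = 0.417). Th, the first enzyme of the same pathway, spread far more: 7.68 and 7.94, then 7.62, 6.78 and 8.11, then 7.17, 7.05 and 6.70 in the same order (-0.66 ± 0.28, adjusted p = 0.24). Heterozygous embryo 10 lay with the homozygous embryos for Th.

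Of the list, 5 genes had homozygous values below all others: Chrna3, Chga, Gata2, Slc18a2 and Ddc; over all probes with 8 values, 14.2% did not overlap, in either direction. Chrna3, the nicotinic receptor subunit of autonomic ganglia, measured 7.86 and 8.07 in wild-type, 7.73, 7.75 and 7.96 in heterozygous, and 7.42, 7.50 and 7.53 in homozygous embryos, a difference of -0.39 ± 0.10 (SE; adjusted p = 0.141, limma). Chga, the granule protein chromogranin A, measured 7.35 and 7.39, then 7.05, 7.00 and 7.53, then 6.83, 6.92 and 6.52, a difference of -0.51 ± 0.15 (adjusted p = 0.164). Gata2, a transcription factor of sympathetic and blood precursors, differed by -0.35 ± 0.12 (adjusted p = 0.183). Slc18a2, the vesicular monoamine transporter, and Ddc, which decarboxylates L-DOPA, differed by -0.25 ± 0.09 and -0.23 ± 0.09 (adjusted p = 0.187 and 0.223). Stmn2, a neuronal protein of growing axons, differed by -0.57 ± 0.34 (adjusted p = 0.365), with its lowest value in heterozygous embryo 10.

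**Figure D3:**
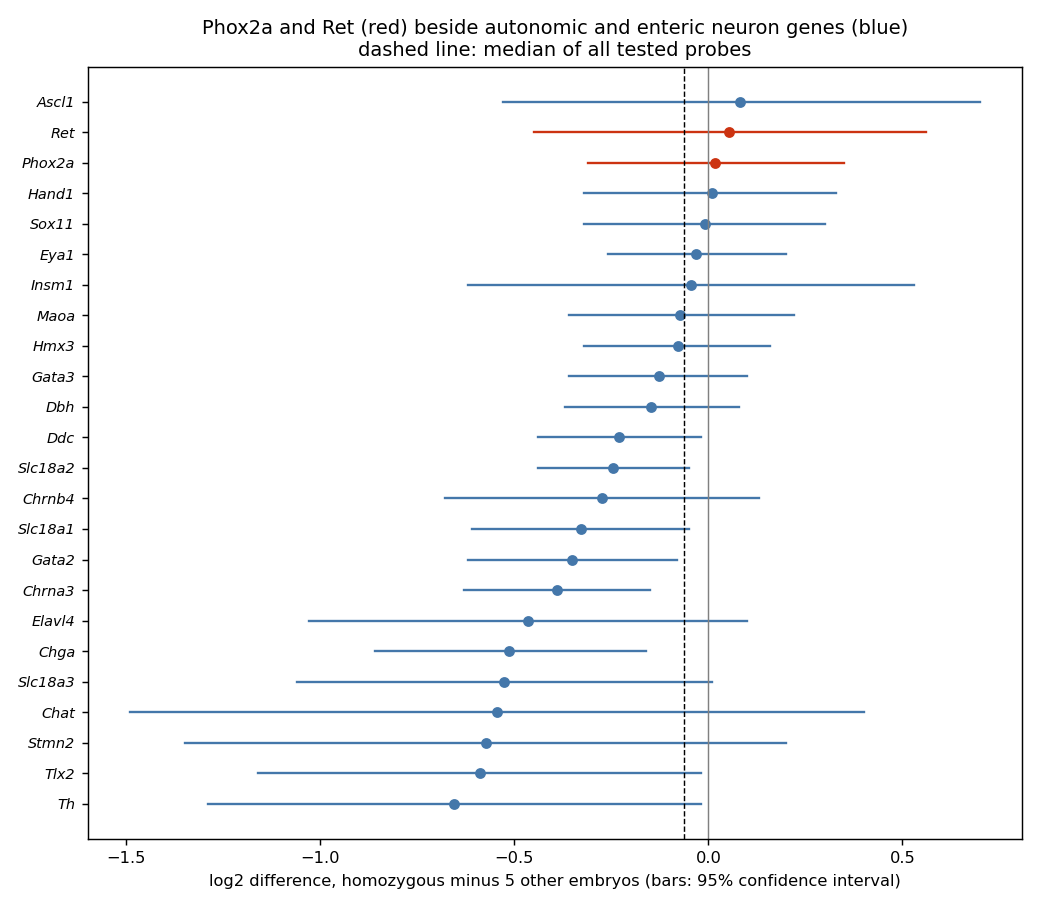
Log2 difference between homozygous and other embryos (x axis, bars are 95% confidence intervals from limma) for Phox2a and Ret in red and 22 of the 23 tested autonomic and enteric neuron genes in blue, ordered by difference. The dashed line marks the median of all tested probes, -0.06; 20 of the 22 list genes shown lie below 0, and Phox2a and Ret lie just above 0 with all 8 embryos (Ret is -0.28 without embryo 16).

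Averaged over the list after centring each gene, the autonomic level was 0.19 and 0.21 in the wild-type embryos, 0.09, -0.13 and 0.15 in heterozygous embryos 3, 10 and 15, and -0.06, -0.09 and -0.35 in homozygous embryos 2, 7 and 16. Heterozygous embryo 10 was lower than homozygous embryos 2 and 7, so the genotypes overlapped, and embryo 16 was lowest. Lists of other cell types were read beside it, with all embryos and without embryo 16. Over all tested probes 60.2% of differences were negative, and 54.9% without embryo 16. The sensory ganglion list had 9 of 11 negative differences (median -0.21) and 9 of 11 without embryo 16 (-0.19). The hindbrain and cranial motor neuron list had 6 of 9 negative (-0.21) and 5 without it (-0.09). The neural tube progenitor list turned, from 5 of 8 negative (-0.09) to 2 of 8 (0.10). The surface ectoderm list had 3 of 12 negative (0.16) and 4 without embryo 16 (0.13), the endothelium and blood list 2 of 6 (0.15) and 2 (0.11), and the limb and facial mesenchyme list 5 of 11 (0.03) and 4 (0.02). The kidney duct list, whose cells also hold Ret, had 5 of 7 negative (-0.13) and 4 without it (-0.12). The part of these shifts in the autonomic values was not tested. Pou4f2 of the sensory list, Chat of the hindbrain list and Tbx4 of the limb list were counted as negative. They were above background throughout the wild-type group only. With the Y-linked covariate the autonomic median was -0.25 and 20 of 23 differences were negative.

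**Figure D4:**
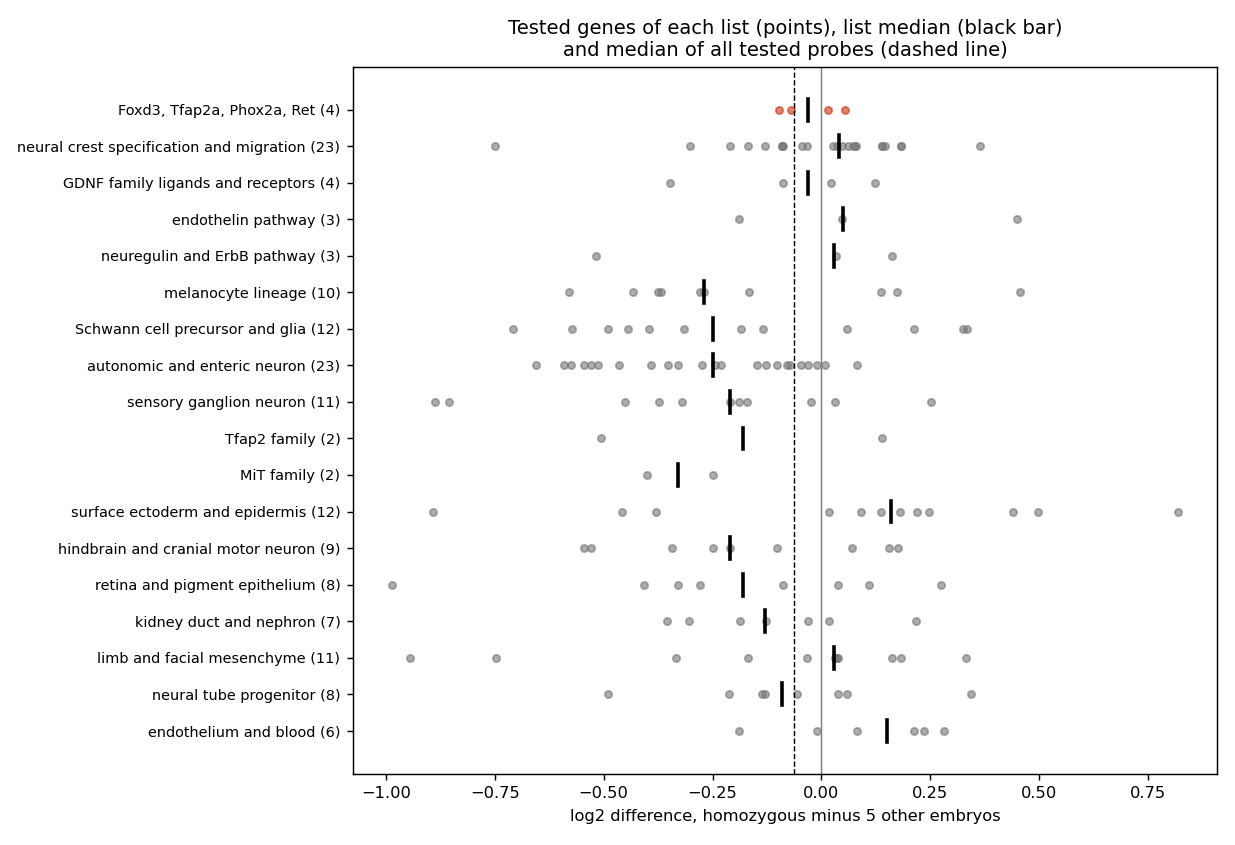
Log2 difference between homozygous and other embryos (x axis) for every tested gene of each list (points; number tested in brackets), with the list's median as a black bar and the median of all tested probes, -0.06, as a dashed line. The 4 genes in red, Foxd3, Tfap2a, Phox2a and Ret, lie near 0, the crest specification genes are centred on 0.04 and the autonomic list on -0.25.

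The genes whose profile over the 8 embryos was most like each factor's were named as a description, with no test, from 9998 named probes above background on all arrays. Likeness was the root mean square difference between profiles centred and divided by their SD, so smaller is more alike. For Ret they were Cep295 (0.19) and Fbf1 (0.20), against a median of 1.44 over all candidates. For Tfap2a they were Ebpl (0.22) and Atp6v1b1 (0.25), median 1.20. For Foxd3 the closest was Cldn4 (0.27), median 1.18, and for Phox2a they were Tmem65 (0.28) and Smc2 (0.31), median 1.37. With 8 embryos and this many candidates, the closest profiles carry no more than their rank.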

How the data were processed

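Total RNA of 8 whole embryos was labelled by the CodeLink protocol, per the labels; the scanner settings are not stated there, and a genome build is not given in the sources used here. Each array file holds, per the file headers, the spot and background intensity and their difference for 35587 spots; the authors also deposited that intensity divided by 1 factor per array (48.6 to 88.5), which equals the deposited value table for all 34967 gene probes within 1e-06.

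The background-subtracted intensity was used here. Marked spots were set missing, arrays were quantile-normalized, values below the 5th percentile of positive values (4.5) were set to it, and the log2 scale was used. A probe was tested if every array of some genotype had it above background, with limma 3.58.1 in R 4.3.3 (lmFit, eBayes, Benjamini-Hochberg, threshold 0.05): 3 genotype means over all 8 embryos for the pairwise comparisons, and a model of 2 groups for homozygous against the others. The scripts were tested on simulated data. Probes were named by unversioned RefSeq accession through a GRCm38.p6 table (14763 with 1 symbol, 20204 without). Where several probes matched, the brightest stood for the gene.

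The genes and lists were chosen with earlier results of these data known. From each list the text draws on members of the signalling pathways and families, up to 4 genes of highest mean and up to 2 of smallest p, and further well-known genes chosen after their values were seen; genes whose difference changed sign under an alternative are given as levels only, except Foxd3, Tfap2a, Phox2a and Ret. Replicate numbers are embryo numbers and pair nothing. No paired analysis was possible because the groups share no replicate number. Some genes of the lists enter the counts but are not reported here by name.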

Additional observations from a re-analysis of the deposited data

Results flagged for a closer look

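Among the 5 wild-type and heterozygous embryos, 45 genes of the text were examined for 1 embryo far from the rest, by its gap to the nearest value over the whole range (95% critical value 0.71 for 5 samples). Such gaps arise by chance in a small share of groups, and 4 genes passed. Dhh had its lowest value in heterozygous embryo 3, 4.26 against a nearest of 4.76, with a ratio of 0.819; the probe was above background in 1 of the 3 heterozygous embryos, and 4.26 is under the lowest value above background on that array (4.38), so the gap has no measured size. Stmn2 had its lowest value in heterozygous embryo 10, 9.37 against 10.58, with a ratio of 0.733. Krt8, a keratin of simple epithelia, had its highest value in the same embryo 10, 9.89 against 9.01, with a ratio of 0.861. Neurod1, a sensory neuron factor, had its highest value in heterozygous embryo 15, 9.24 against 8.90, with a ratio of 0.733. Foxd3, Tfap2a, Phox2a and Ret gave no such gap.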

How the results depend on the processing

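Alternatives were other normalizations (median scaling, cyclic loess, the deposited values), normexp, another floor, 2 other filters, array weights, a Y-linked covariate, only the genotypes compared, marked spots kept, and leaving out each embryo. A slide or scan block was not run, since no header batch holds over 1 array. Over 16 differences of Foxd3, Tfap2a, Phox2a and Ret and 300 alternatives, none passed the threshold, 255 kept their sign and 45 turned it, within -0.467 to 0.31. In homozygous against wild type, Ret (0.0248) became -0.0554 with median scaling, -0.0902 with deposited values, -0.21 with weights, -0.121 with the covariate and -0.00795 with marked spots kept, and Phox2a (-0.0277) became 0.00541 with loess; leaving out embryos gave -0.307 to 0.263 and -0.173 to 0.152. In homozygous against the others, Ret became -0.0203, -0.0541 and -0.19 with median scaling, deposited values and weights, Phox2a -0.148, -0.181 and -0.0684 with the same and -0.00435 with marked spots kept, and Tfap2a 0.0514 with loess; leaving out embryos gave -0.279 to 0.291, -0.129 to 0.196 and -0.217 to 0.0397, and -0.122 to 0.00289 for Foxd3. In homozygous against heterozygous, Ret became -0.0301 and -0.164 with deposited values and weights, Phox2a -0.096, -0.129 and -0.0226 with median scaling, deposited values and weights, Tfap2a -0.161 with the covariate and -0.02 with marked spots kept, and Foxd3 0.0314 with weights; leaving out embryos gave -0.26 to 0.31, -0.1 to 0.225, -0.115 to 0.199 and -0.119 to 0.0126. In heterozygous against wild type, the covariate gave Tfap2a 0.0388 and Foxd3 0.11; leaving out embryos gave Ret -0.0977 to 0.00326, Phox2a -0.15 to 0.00457 and Foxd3 -0.0909 to 0.0346. The cause was not tested. Probes past the threshold in homozygous against wild type (8) were 27 with median scaling or deposited values, 20 with loess, 36 with normexp, 5 with the lower floor or marked spots kept, 4 without a filter, 208 with weights, 0 with only those genotypes and 0 to 44 without 1 embryo. In heterozygous against wild type (0) they were 2 with median scaling or deposited values, 1 with loess or weights and 0 to 3 without 1 embryo. In homozygous against heterozygous (5) they were 10, 9, 12, 11 and 13 with median scaling, loess, deposited values, normexp and weights, and 4 to 58 without 1 embryo. In homozygous against the others (25) they were 42, 45 and 85 with loess, deposited values and normexp, 6 without a filter, 50 with probes above background on all arrays, 110 with weights, 53 with the covariate, and 5 to 322 without 1 embryo: 322 without embryo 7, 14 without 3, 39 without 10, 6 without 11 and 5 without 13 or 15. One list gene, Ece1, passed with normexp (1 gene against 0). The median of all probes moved from -0.0634 to -0.218 with median scaling and -0.251 with deposited values, and that of the autonomic list from -0.245 to -0.411 with deposited values; its negative genes numbered 18 to 23 of 23.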

Other observations

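Of the keratins in the surface ectoderm list, those of simple epithelia and those of the basal epidermis differed in opposite directions between homozygous and other embryos, and none passed the test. Krt19 measured 8.60 and 8.33 in wild-type, 8.56, 9.33 and 8.26 in heterozygous, and 9.15, 9.02 and 10.14 in homozygous embryos, a difference of 0.82 ± 0.31 (SE; adjusted p = 0.208, limma), and of 0.47 without embryo 16. Krt18 and Krt8 differed by 0.50 ± 0.24 and 0.44 ± 0.24 (adjusted p = 0.28 and 0.335), and by 0.34 and 0.30 without embryo 16. Krt5 measured 8.13 and 8.68, then 7.71, 7.15 and 8.11, then 6.57, 7.08 and 7.55 in the same order, a difference of -0.89 ± 0.34 (adjusted p = 0.208), and Krt14 differed by -0.38 ± 0.24 (adjusted p = 0.387). These genes were singled out after their values were seen. Heterozygous embryo 10 was the highest of the 5 embryos with a normal allele for Krt8, Krt18 and Krt19 and the lowest of them for Krt5, Stmn2, Th and Prph, the neuronal intermediate filament peripherin, which measured 5.77 there and 7.22 to 7.85 in the other 4. Prph was 6.69, 6.40 and 5.87 in the homozygous embryos.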
